A study of Mus musculus with 32 samples.

Results

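The cytosolic ribosomal protein genes were followed on 32 one-colour arrays of total RNA. The mice had received MCG 101 cells, a transplantable mouse sarcoma that methylcholanthrene had induced. Members were all genes whose symbol is Rpl or Rps with a subunit number, with an optional a, x or l, together with Rplp0 to Rplp2 and Rpsa. RefSeq lists 83 such symbols, and 82 of them were on the array, out of 45616 named genes and transcripts in all, and 141 probes measured them. Of these, 50 were large-subunit and 32 small-subunit symbols, 76 were standard subunit genes and 6 were paralogs whose symbol ends in l. Each gene was read from its brightest probe. The samples were tumor stroma and tumor, each taken from wild-type and from knockout hosts. The knockout removes EP2, a receptor for prostaglandin E2 that signals through cAMP and whose gene is Ptger2. MCG 101 cells were implanted in the hosts of all groups, and the genotype label is that of the host, not of the implanted cells. Tissue and genotype together made 4 groups of 8 arrays, and in each group 4 arrays carried a female and 4 a male label. The labels give no age or strain of the mice and no time after implantation. They number the samples without saying that each comes from a separate animal, so the p-values measure the spread between these samples.

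A eukaryotic ribosome is built from a small and a large subunit, each made of ribosomal RNA and ribosomal proteins. The genes of this family are expressed at high levels, above all in growing cells. Their mRNAs usually begin with a tract of pyrimidines, the TOP motif, through which mTOR and the RNA-binding protein Larp1 govern their translation. A few members have close paralogs with restricted expression, such as Rpl3l in skeletal muscle and heart, Rpl10l and Rpl39l in the testis, and Rps27l, a p53 target.

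The sequences around the annotated transcription start are shown because the tract at the start is the feature the family is known for. RefSeq promoters (GRCm38.p6) were matched for 61 members, 56 standard and 5 paralogs. A run of 6 or more pyrimidines that began with C was searched on the gene's own strand from 15 bases before the start through the first 15 transcribed bases, and is printed in capitals. The first 5 sequences hold such a run, and Rps3 and Rpl3l hold none at the annotated start shown. A further annotated start of Rpl3l held none either. Rpl39l, a paralog, holds a run that lies wholly before its annotated start.
Rps6: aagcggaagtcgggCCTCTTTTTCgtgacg
Rpl15: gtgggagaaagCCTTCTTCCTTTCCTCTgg
Rps10: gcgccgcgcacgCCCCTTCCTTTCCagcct
Rplp2: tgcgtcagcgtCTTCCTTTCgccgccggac
Rps2: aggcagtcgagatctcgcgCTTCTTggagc
Rps3: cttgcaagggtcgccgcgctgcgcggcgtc
Rpl3l: gagtgttctagctctgtcatttgacctctg
Rpl39l: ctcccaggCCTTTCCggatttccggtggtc
In this order they lie at chr4:86857353-86857382 (minus strand), chr14:18270972-18271001 (minus), chr17:27635230-27635259 (minus), chr7:141447636-141447665 (plus), chr17:24720048-24720077 (plus), chr7:99483695-99483724 (minus), chr17:24727811-24727840 (plus) and chr16:10170213-10170242 (plus). The run was present in 33 of 56 standard members (58.9%) and in 25.5% of all 27025 genes with a promoter in the table. Over the 250 bases before and 50 bases after the start, on both strands, CCGGAAG, a sequence that ETS factors bind, was present in 23 of the 56 (41.1%, against 9.93% of all genes). AAGATGGC, a form of the YY1 site, was present in 5 (8.93%, against 3.19%), and TATAAA in 6 of the 56 (15.7% of all genes hold it). The members with and without the run at the start had similar differences: the median log2 difference between stroma and tumor was -0.53 in the 33 with it and -0.60 in the 23 without it.

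On these arrays 72 of the 76 standard genes were well above background on all 32 arrays and the other 4 on at least 30. The probe of Rpl37 was dim, while Rpl10l was well above background on 1 array only and was not tested, which left 81 members in each comparison. No spot was saturated. The wild-type stroma arrays 65 and 82 stood apart from the other stroma: the mean log2 level of 17 skeletal muscle markers was 2.16 and 0.48 on them against 4.68 to 8.31 on the other 14 stroma arrays. Sex-linked transcripts went against the sex label on 1 wild-type stroma, 2 knockout stroma and 2 knockout tumor arrays. On wild-type tumor 5, 76.3% of spots were well above background. All values below are log2 signals relative to the 75th percentile of the same array unless quantile scaling is named, which gives every array the same distribution of signals. Tests are limma's, and a gene passed at an adjusted p under 0.05 over all genes tested.

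A level per array was formed as the mean over the 76 standard genes of the log2 signal minus each gene's own 32-array mean. In tumor it ran from -0.05 to 0.82 (median 0.38) in wild-type and from -0.04 to 0.50 (median 0.09) in knockout hosts. In stroma the ranges were -0.32 to 0.18 (median -0.13) and -0.70 to -0.03 (median -0.47). All 16 stroma arrays lay below the tumor median, and 11 of them below the lowest tumor array. Knockout stroma was the lowest group, with 6 of its 8 arrays below the lowest wild-type stroma array. The group means were 0.38 ± 0.33, 0.17 ± 0.21, -0.11 ± 0.17 and -0.45 ± 0.22 (SD, n = 8 each) for wild-type tumor, knockout tumor, wild-type stroma and knockout stroma.

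Quantile scaling drew the tumor arrays together and left the stroma arrays spread. The tumor levels then ran from 0.04 to 0.28 in wild-type hosts and from 0.07 to 0.28 in knockout hosts, with means of 0.20 ± 0.07 and 0.19 ± 0.06 (SD, n = 8 each). The wild-type stroma mean was -0.04 ± 0.30 and the knockout stroma mean -0.35 ± 0.20. Under this scaling wild-type stroma 9 was the lowest array of all (-0.71). All 8 knockout stroma arrays lay below the lowest tumor array, and 4 of 8 wild-type stroma arrays did. As a share of the summed processed signal of an array, the probes of the 76 genes held 7.43 ± 0.637% in wild-type tumor, 6.75 ± 0.421% in knockout tumor, and, in stroma, 5.98 ± 0.825% in wild-type and 4.97 ± 0.658% in knockout hosts (SD, n = 8 each).

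**Figure D1:**
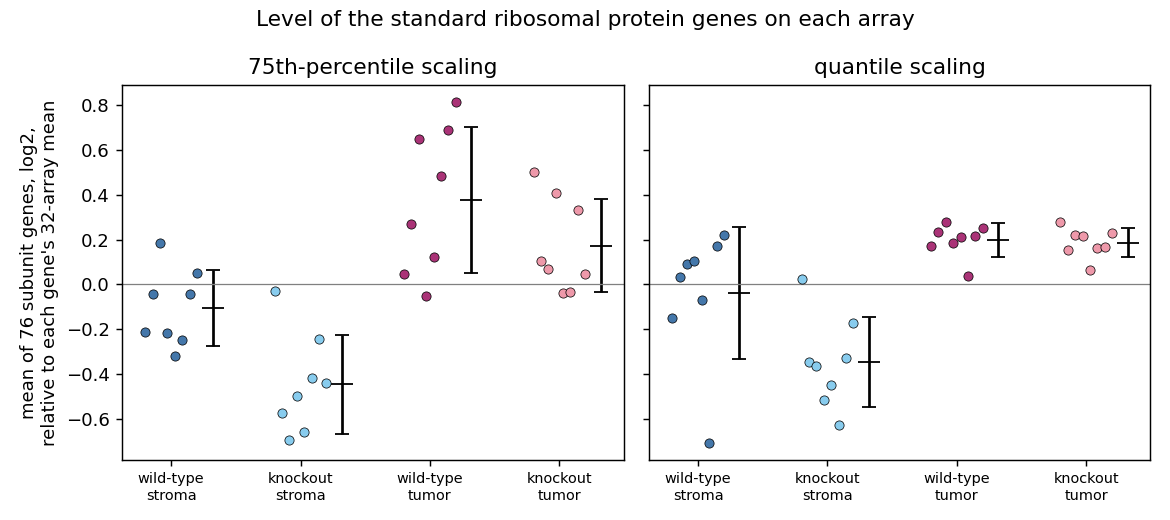
Level of the 76 standard ribosomal protein genes on each of the 32 arrays (points; y axis in log2 relative to each gene's 32-array mean) by group, under 75th-percentile scaling (left) and quantile scaling (right); bars are the mean and SD of 8 arrays. Knockout stroma is the lowest group in both panels, and the SD of the wild-type tumor arrays is 0.33 on the left and 0.07 on the right.

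The first comparison set stroma against tumor, and asked how the stroma of the sarcoma differs from the sarcoma. Ribosomal protein genes were lower in stroma almost throughout: 70 of 81 members passed the test as lower and 3 as higher, where 36.8% of the 27096 genes tested passed as lower and 62.8% in either direction. All 76 standard genes had a difference below 0, 69 of them past the threshold, against 56.0% of all genes below 0. The median of the standard genes was -0.56, a stroma level 32.3% lower, and the median of all genes tested was -0.13. Large-subunit genes (43 of 46 passed as lower, median -0.57) and small-subunit genes (26 of 30, median -0.55) had like medians. With quantile scaling 61 members passed as lower (37.6% of all genes did) and 3 as higher, with a median over all 81 of -0.38 against -0.16 for all genes. The 64 that passed with quantile scaling had all passed with the 75th percentile. Within each of the 6 slides the median of the standard genes was below 0, from -0.92 to -0.13. Host genotype was not balanced between the tissues within slides: the slide at -0.92 held mostly knockout stroma and only wild-type tumor. In bulk tissue, fewer cells of a type and less RNA per cell cannot be told apart.

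The standard gene that fell most was Rps3, a small-subunit protein at the mRNA entry site that also acts in DNA repair. Its log2 signal ran from 6.47 to 7.89 in wild-type tumor (median 7.22), from 6.58 to 7.67 in knockout tumor (7.05), from 5.63 to 7.03 in wild-type stroma (6.49) and from 5.47 to 6.77 in knockout stroma (5.57). Of 16 stroma arrays 11 lay below every tumor array, and the difference was -1.05 ± 0.18 (SE, adjusted p = 1.21e-05). Rps2, a small-subunit protein near the decoding site, spanned 7.10 to 7.98 (median 7.46) in wild-type tumor and 7.22 to 7.74 (7.35) in knockout tumor. In stroma it spanned 5.96 to 7.44 (6.92) in wild-type and 5.64 to 6.82 (6.06) in knockout hosts. The groups overlapped on few arrays, with 13 of 16 stroma arrays below every tumor array, and Rps2 fell by 0.99 ± 0.14. Rps15 fell by 1.0 ± 0.12 and Rpl22 by 0.88 ± 0.12, with 14 of 16 stroma arrays below every tumor array for each gene. Rpl22, a large-subunit protein with a paralog and a known role in lymphocyte development, ran from 6.34 to 7.20 over the tumor arrays and from 5.17 to 6.45 over the stroma arrays. Rpl37 (-0.94), Rpl8 (-0.90), Rpl23a (-0.86) and the X-linked Rps4x (-0.86) made up the rest of the 8 largest falls, which all passed with quantile scaling too.

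The estimates of members with a known role beyond the subunit differed in size, which was not tested between genes. Rps6, the substrate of the S6 kinases downstream of mTOR, fell by 0.74 ± 0.11 (adjusted p = 2.03e-06). Its medians were 7.66 and 7.54 in wild-type and knockout tumor and 7.21 and 6.58 in wild-type and knockout stroma. Of 16 stroma arrays 13 lay below the lowest tumor array. Rpl5, which with Rpl11 binds Mdm2 and so links ribosome assembly to p53, fell by 0.66 ± 0.15. Rpl11 itself differed by -0.23 ± 0.10 and missed the threshold (adjusted p = 0.0536). The stalk proteins that recruit translation factors split in the same way: Rplp0 and Rplp1 both fell (by 0.57 each), while Rplp2 fell by 0.24 (adjusted p = 0.0385) and missed the threshold with quantile scaling (-0.11, adjusted p = 0.152). Rpsa, also known as a laminin receptor, fell by 0.60 and Rps19, the gene most often mutated in Diamond-Blackfan anemia, by 0.53. Rpl10, which is placed late in large-subunit assembly, fell by 0.22 (adjusted p = 0.0354) and missed the threshold with quantile scaling (-0.11, adjusted p = 0.156). Rps14, known from a form of myelodysplastic syndrome, differed by -0.21 ± 0.12 (adjusted p = 0.138). Rps3a1 and Fau encode ribosomal proteins but have symbols outside the rule, and they fell by 0.28 and 0.38.

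The size of the difference went with the signal of the probe. Across 75 standard genes, leaving out the dim Rpl37, the correlation between mean log2 signal and the stroma minus tumor difference was r = 0.54 (Spearman 0.57). All points share the same 32 arrays. The 37 dimmer probes had a median difference of -0.67 and the 38 brighter ones -0.44. With quantile scaling the correlation was 0.49 (Spearman 0.51) and the medians were -0.52 and -0.33. The same held for the genotype difference in stroma, where the dimmer probes had a median of -0.46 and the brighter ones -0.26 (r = 0.56). In tumor the order turned with the scaling: the genotype difference was -0.18 for the dimmer and -0.24 for the brighter probes (r = -0.58), while with quantile scaling the correlation was 0.21. Whether bright probes respond less than in proportion was not tested.

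**Figure D2:**
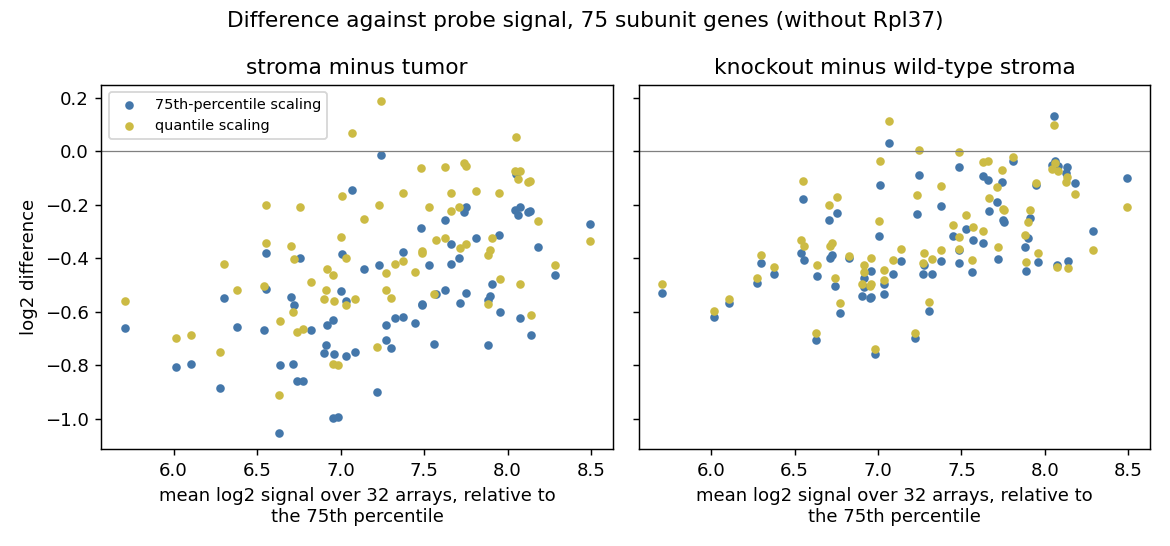
Log2 difference of 75 standard ribosomal protein genes (points) against the mean log2 signal of the probe over 32 arrays, for stroma minus tumor (left) and knockout minus wild-type stroma (right), under both scalings (colours). Dimmer probes lie lower in both panels, with medians of -0.67 and -0.44 on the left for the dimmer and brighter probes under 75th-percentile scaling.

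For 44 members several probes could be compared, and for 43 of them all probes of the gene had a stroma minus tumor difference of the same sign. The range between probes of a gene had a median of 0.13 and reached 0.89 for Rps24, named after its values were seen because it was the exception: its probes ran from -0.67 to 0.22. Many ribosomal protein genes have processed pseudogenes that are near copies, and the probe sequences were not used here, so cross-hybridisation was not tested.

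Of the paralogs, 3 moved against the family. Rpl3l, which replaces Rpl3 in mature skeletal muscle and heart, ran in stroma from -5.26 to 5.57 (median 1.76) in wild-type and from 2.15 to 4.78 (3.28) in knockout hosts. In tumor it ran from -7.88 to -0.88 (-6.04) in wild-type and from -7.65 to 1.35 (-4.21) in knockout hosts. It was well above background on 15 of 16 stroma arrays, 3 of 8 wild-type tumor arrays and 6 of 8 knockout tumor arrays. The 2 lowest stroma arrays, wild-type 65 (-3.00) and 82 (-5.26), were also those with the lowest muscle marker level. The 2 highest tumor arrays, knockout 15 (1.35) and 81 (0.05), followed by wild-type 1 (-0.88), had the 3 highest muscle marker levels in tumor. Rpl3l rose (fitted difference 6.73 ± 0.78, SE, adjusted p = 1.02e-07), but that size rests in part on tumor signals at background. With each tumor value raised to at least its array's detection floor, the dimmest signal there that was well above background, the difference of means was 5.87. Its partner Rpl3, which is used in most other cells, fell by 0.80 ± 0.15. All 17 skeletal muscle markers rose in stroma (median 6.29), among them the muscle creatine kinase Ckm (7.88 ± 0.84), and none was below background on all arrays of a group. Their part in the Rpl3l difference was not tested.

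Rps4l, listed by RefSeq as a transcribed pseudogene, was above the tumor median on 15 of 16 stroma arrays, with medians of 1.0 and 1.41 in wild-type and knockout stroma against -1.16 and -0.56 in tumor. It rose by 1.95 ± 0.35 (adjusted p = 2.76e-05). Its highest tumor array was wild-type tumor 9 (1.87). Rpl39l, a testis-enriched form of Rpl39, rose by 1.5 ± 0.50 (adjusted p = 0.0114), with medians of -2.36 and -1.81 in stroma and -3.91 and -3.22 in tumor. Its groups overlapped, since wild-type tumor 9 (0.68) was above every stroma array. The partner Rpl39 fell by 0.38 ± 0.11 and missed the threshold with quantile scaling (-0.17). Rps27l, which p53 induces, differed by -0.13 ± 0.13 (adjusted p = 0.410), with group medians between 6.14 and 6.38, while its partner Rps27 fell by 0.26 (-0.06 with quantile scaling, where it did not pass). Rpl32l fell by 0.76 ± 0.11, as did Rpl32 (by 0.52 ± 0.10).

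**Figure D3:**
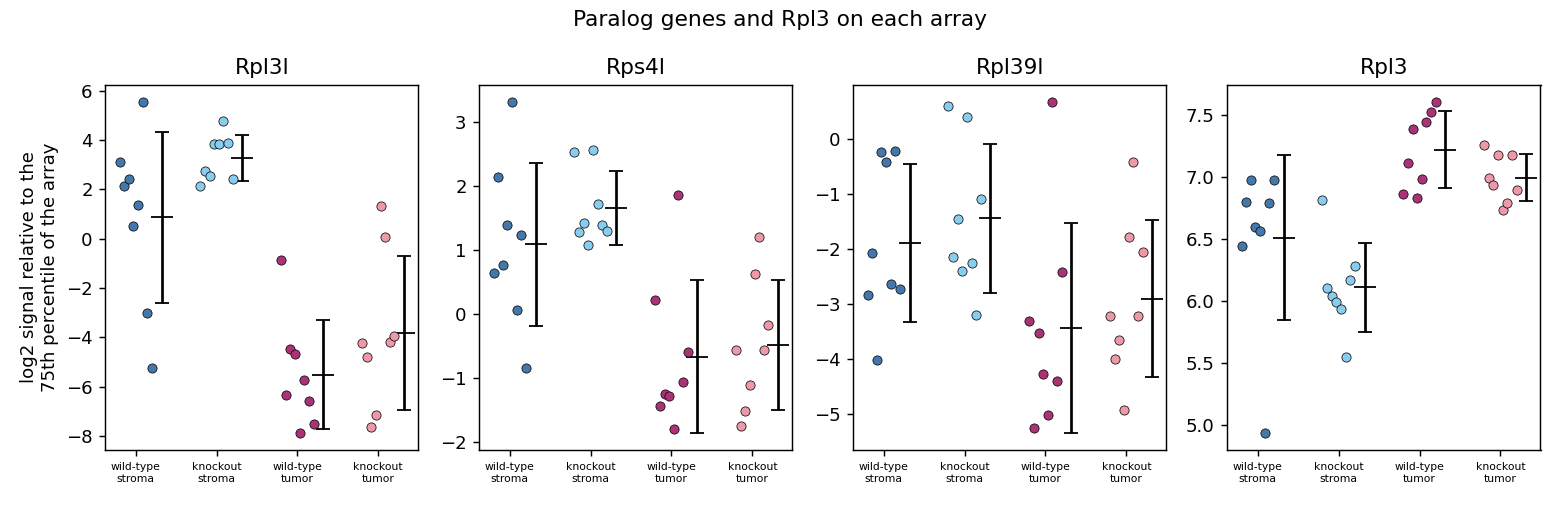
Log2 signal relative to the array's 75th percentile for Rpl3l, Rps4l, Rpl39l and Rpl3 on each of the 32 arrays (points) by group, each panel with its own y axis; bars are the mean and SD of 8 arrays. Rpl3l is above 0 on 14 of 16 stroma arrays and below 0 on wild-type stroma 65 and 82, while Rpl3 is lower in stroma than in tumor.

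The rest of the machinery that makes and uses ribosomes was read from lists. Beside each count stand the 36.8% of all genes that fell and the 26% that rose. Of 50 ribosome biogenesis genes 38 fell (76%) and 1 rose in stroma, with a median of -0.80. Nolc1, a nucleolar chaperone of small nucleolar RNPs, fell by 1.60 ± 0.19, Gar1, a core protein of H/ACA particles, by 1.33 ± 0.16, and Pes1, which acts in maturation of the large subunit, by 1.24 ± 0.15. All 12 tested host genes of small nucleolar RNAs fell (median -1.05), with Snhg1 at -1.75 ± 0.21 and Snhg5 at -1.65 ± 0.16. Like the ribosomal proteins, several of these genes make mRNAs or spliced RNAs that begin with a pyrimidine tract. Translation factors fell in 24 of 36 genes (66.7%) and rose in 2 (median -0.50). The poly(A)-binding protein gene Pabpc1 fell by 1.39 ± 0.18, the helicase Eif4a1 by 0.95 ± 0.13 and the elongation factor subunit Eef1b2 by 0.69 ± 0.11. Mitochondrial ribosomal proteins are a separate family encoded in the nucleus. Here 23 of 78 fell (29.5%) and 13 rose (16.7%), a smaller share on both sides than of all genes. Their median was -0.10, where that of all genes was -0.13. Mrps6 (-1.39 ± 0.16) and Mrpl49 (-1.06 ± 0.14) were among those that fell. This depended on the scaling. With quantile scaling 28 of the 78 fell and 24 rose, where 37.6% of all genes fell and 26.1% rose. The share that rose was then not smaller than that of all genes.

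Among 28 regulators of ribosome production 10 rose and 10 fell (35.7% each, against 26% and 36.8% of all genes). Myc, which drives transcription of ribosomal protein and biogenesis genes, fell by 2.25 ± 0.29, and Deptor, an inhibitor of mTOR, rose by 1.61 ± 0.18. In the list of 18 p53 genes 11 rose (61.1%, against 26% of all genes) and 6 fell (33.3%), with a median of 0.79 and Phlda3 at 3.02 ± 0.33 and Ccng1 at 2.60 ± 0.31. All 17 cell cycle genes fell (36.8% of all genes did, median -2.51), among them the replicative helicase gene Mcm2 (-1.80 ± 0.25) and the mitotic kinase Aurka (-1.99 ± 0.29). The cell cycle level, a mean over these 17 genes, ran from -3.41 to 3.83 in wild-type stroma, from -0.88 to 2.53 in knockout stroma, from 3.03 to 3.9 in wild-type tumor and from 3.65 to 3.95 in knockout tumor. Markers of fat (14 of 15 rose, median 4.83, with Fabp4 at 4.02 ± 0.48), of endothelium (10 of 10, 1.41) and of macrophages (9 of 11, 1.58) moved the other way. The fat marker level went down to -4.95 on knockout tumor 59B, where the detection floor was -4.97, so the size for fat rests in part on dim signals. Whether these differences in tissue makeup and cell cycling set the ribosomal protein difference was not tested.

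The contrast of the tissues was next read within each host genotype. In wild-type hosts 59 members passed as lower in stroma and 2 as higher (19.8% and 11.8% of all genes), with a median over the 81 of -0.47 against -0.22 for all genes. In knockout hosts 59 passed as lower and 2 as higher (32.3% and 27.4% of all genes), with a median of -0.64 against -0.03. In knockout hosts every stroma array lay below every tumor array for 22 of 81 members, where 18.1% of all genes did so. In wild-type hosts, with stroma 65 and 82 included, this held for 0 members (0.786% of all genes). With quantile scaling these counts were 36 (19.6% of all genes) and 1, Rpl22 (0.62%). Rps2 differed by -0.64 ± 0.20 in wild-type and by -1.34 ± 0.20 in knockout hosts, and Rps3 by -0.77 ± 0.25 and -1.34 ± 0.25. Rpl22 differed by -0.71 ± 0.17 and -1.06 ± 0.17, and Rps15 by -0.83 ± 0.18 and -1.17 ± 0.18. At the other end Rps20, Rps12 and Rpl4 were at 0.14 ± 0.15, 0.03 ± 0.13 and 0.00 ± 0.15 in knockout hosts, and none passed.

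The wild-type result depended on the scaling. With quantile scaling 5 members passed as lower and 2 as higher in wild-type hosts (15.9% and 13.6% of all genes) and the median was -0.21, against 59 lower, 2 higher and -0.56 in knockout hosts (34.7% and 25.2% of all genes). Without wild-type stroma 65 and 82 the quantile count of lower members in wild-type hosts was 48 of 81 and the median -0.36, and with the 75th percentile it was 57 and -0.54. The share of all genes called in either direction was then 48.1% and 48.5%, against 29.5% and 31.6% with these arrays. Rpl3l rose in both hosts, by differences of means of 5.19 and 6.55 with the tumor values raised as above (it was well above background on 3 of 8 wild-type and 6 of 8 knockout tumor arrays). Rps4l rose in both hosts too (1.76 ± 0.50 and 2.14 ± 0.50), whereas Rpl39l missed the threshold in each host alone (1.55 and 1.46, adjusted p = 0.0935 and 0.0800). Within slides that held both tissues of a host genotype, the median difference of the standard genes was below 0 on 4 of 4 slides in wild-type and 4 of 4 in knockout hosts under either scaling. On each of these slides at least 1 tissue had only 1 array.

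**Figure D4:**
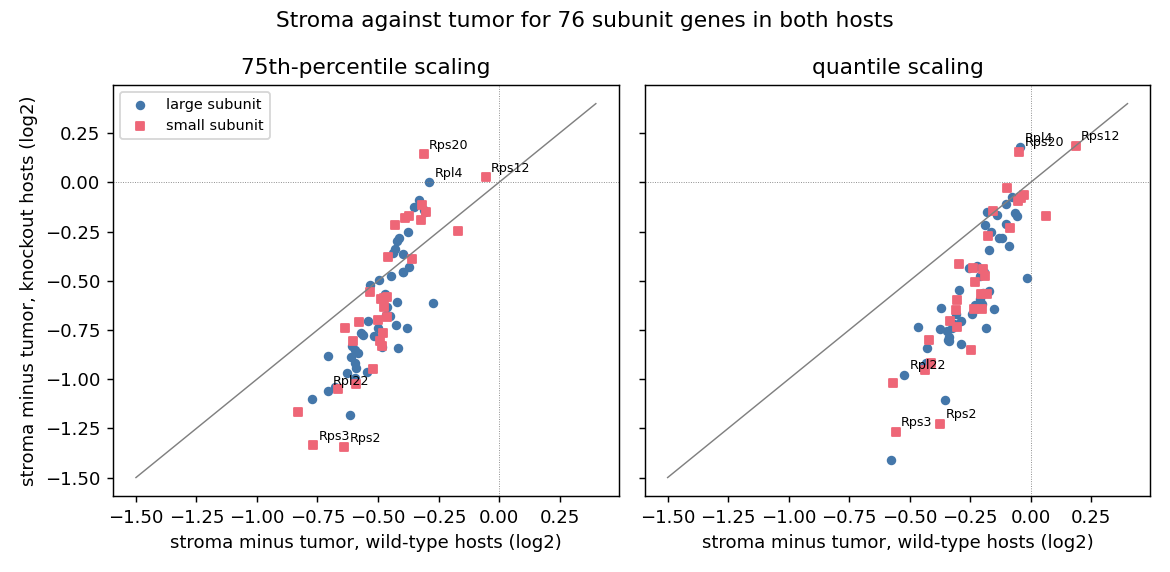
Stroma minus tumor log2 difference of each of 76 standard ribosomal protein genes in wild-type hosts (x axis) and knockout hosts (y axis), under 75th-percentile (left) and quantile scaling (right); the line marks equal differences. Under quantile scaling 70 of the 76 genes lie below the line and under the 75th percentile 54, with Rps2 and Rps3 among the lowest.

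Knockout stroma was then set against wild-type stroma, which addressed the effect of host EP2 on the stroma. Of the members 0 passed limma's test, as did 0 of 24772 genes (0%), and the smallest adjusted p over all genes was 0.125. In direction, 76 of 81 members had a difference below 0, against 44.7% of all genes, and the median of the standard genes was -0.39, where the median of all genes was 0.09. At an unadjusted p under 0.05 stood 40 members and 28.5% of all genes. With quantile scaling 75 members were below 0 (47.5% of all genes), the median of the standard genes was -0.35, and again 0 members passed (0% of genes), with 30 at an unadjusted p under 0.05 (29.5% of all genes). Wild-type and knockout arrays shared 5 slides, and the median of the standard genes within a slide was below 0 on 4 of them, from -0.72 to 0.20. Each of these slides held only 1 array of at least 1 genotype. The exception set knockout stroma 12 against wild-type stroma 9.

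Rps6 signal in stroma ran from 6.82 to 7.56 (median 7.21) in wild-type hosts and from 6.42 to 7.19 (median 6.58) in knockout hosts. Of 8 knockout arrays 7 lay below the lowest wild-type array, with knockout stroma 12 the exception. The count was also 7 for Rplp0 and Rps19 and, named after their values were seen, for Rpl18 and Rps21. For Rplp0 and Rps19 it rested on thin margins on knockout stroma 95, at 7.442 against 7.444 and 7.305 against 7.309. How many of all genes had such a count was not determined, and 28.5% of them had an unadjusted p under 0.05 by limma's test. The Rps6 difference was -0.60 ± 0.17 (SE, adjusted p = 0.125). Rps2 had the lowest estimate (-0.76 ± 0.23), and every knockout array was lower than the median of wild-type stroma, 2 of them lower than its lowest array. Rps3 followed at -0.70 ± 0.25, Rpl8 at -0.70 ± 0.22, Rps7 at -0.62 ± 0.24, Rps4x at -0.60 ± 0.18, Rpl21 at -0.57 ± 0.21 and Rps15 at -0.55 ± 0.20, each with an adjusted p between 0.125 and 0.133. Rpl5 was at -0.53 ± 0.20 and Rplp0 at -0.40 ± 0.15, whereas Rpl11 was at -0.08 ± 0.14. The 2 standard genes with a difference above 0 were Rps20 (0.13 ± 0.16) and Rpl4 (0.03 ± 0.17), and the sign of Rpl4 turned without wild-type stroma 65 and 82 (-0.07).

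Among the paralogs, Rpl3l was at 2.41 ± 1.15 (adjusted p = 0.182), and at 0.51 (adjusted p = 0.841) without wild-type stroma 65 and 82. Rps4l was at 0.57 ± 0.49 and Rpl39l at 0.45 ± 0.68, the latter at -0.29 with array weights. Rpl32l was at -0.51 ± 0.18 and Rps27l at -0.08 ± 0.22 (0.04 without wild-type stroma 65 and 82). Skeletal muscle markers were above 0 in 17 of 17 genes (median 1.49), adipocyte markers in 15 of 15 (2.01) and cell cycle genes below 0 in 17 of 17 (-1.5), with none past the threshold. Without wild-type stroma 65 and 82 these medians were 0.25, 0.54 and -0.36. The mean muscle level was 5.27 ± 2.67 in wild-type (SD, n = 8; 6.59 ± 1.16 over the other 6 arrays) and 6.91 ± 0.69 in knockout stroma (SD, n = 8). The part of these lists in the ribosomal protein difference was not tested.

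Genes that build ribosomes lay in the same direction. Ribosome biogenesis genes were below 0 in 46 of 50 (median -0.70), snoRNA host genes in 12 of 12 (-0.76) and translation factors in 30 of 36 (-0.34), where 44.7% of all genes were below 0, again with 0 past limma's threshold. Without wild-type stroma 65 and 82 the medians were -0.27, -0.55 and -0.19. Npm1, nucleophosmin of the nucleolus, was at -1.25 ± 0.31, Nolc1 at -1.36 ± 0.36, Snhg12 at -1.04 ± 0.18, Pabpc1 at -1.15 ± 0.35 and Myc at -1.73 ± 0.55, each with an adjusted p of 0.125. Mitochondrial ribosomal proteins were below 0 in 51 of 78 (65.4%, median -0.12).

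Several arrays decided how many members passed in stroma. Without wild-type stroma 9, whose cell cycle level was the lowest (-3.41) and whose muscle level was the highest (8.31) of the stroma arrays, 32 members passed, 31 of them as lower, as did 34.3% of all genes. On this array the sex-linked transcripts also went against the label. Without wild-type stroma 4, 24 passed (20.3% of all genes). Leaving out the 3 stroma arrays that went against their sex label, wild-type stroma 9 among them, 14 passed (23.8% of all genes). With array weights 59 passed (65.1% of all genes), and 18 (16.1%) in a fit to all 32 arrays. Removing wild-type stroma 65 and 82 left 0 members past the threshold, 76 below 0 and a median over the 81 of -0.27, or -0.16 with quantile scaling, and 5 members then had an unadjusted p under 0.05 (7.46% of all genes).

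In tumor the genotype differences were small, and both the scaling and a slide term in the fit changed them. By limma's test 0 members passed, as did 0 of 23730 genes (0%), and 1 member had an unadjusted p under 0.05, against 3.53% of all genes. With the 75th percentile all 76 standard genes were below 0 (56.0% of all genes were), with a median of -0.20. With quantile scaling 44 of the 76 were below 0 (41.8% of all genes), the median was -0.01, and 0 members had an unadjusted p under 0.05 (3.01% of all genes). Among the lowest estimates were Rps20 at -0.32 ± 0.14, Rps10 at -0.31 ± 0.15 and Rps18 at -0.30 ± 0.15 (adjusted p = 0.980 for each), and these were at -0.11, -0.06 and -0.01 with quantile scaling. Within the 3 slides that held both genotypes, each with 1 knockout array, the median of the standard genes ran from -0.66 to 0.32. With slide as a fixed block under 75th-percentile scaling, 56 of 81 members were below 0, against 77 in the main fit. The median over the 81 was then -0.05 against -0.19, and that of all genes 0.01 against -0.03. The wild-type tumor arrays 9, 65 and 82 had the lowest 75th percentiles of signal in tumor (584, 845 and 740), and their ribosomal protein levels of 0.48, 0.69 and 0.82 became 0.04, 0.22 and 0.25 with quantile scaling. Rpl3l was well above background on 3 of 8 wild-type and 6 of 8 knockout tumor arrays, so no size is given. Biogenesis genes had a median of 0.04 and cell cycle genes, all 17 above 0, one of 0.29.

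**Figure D5:**
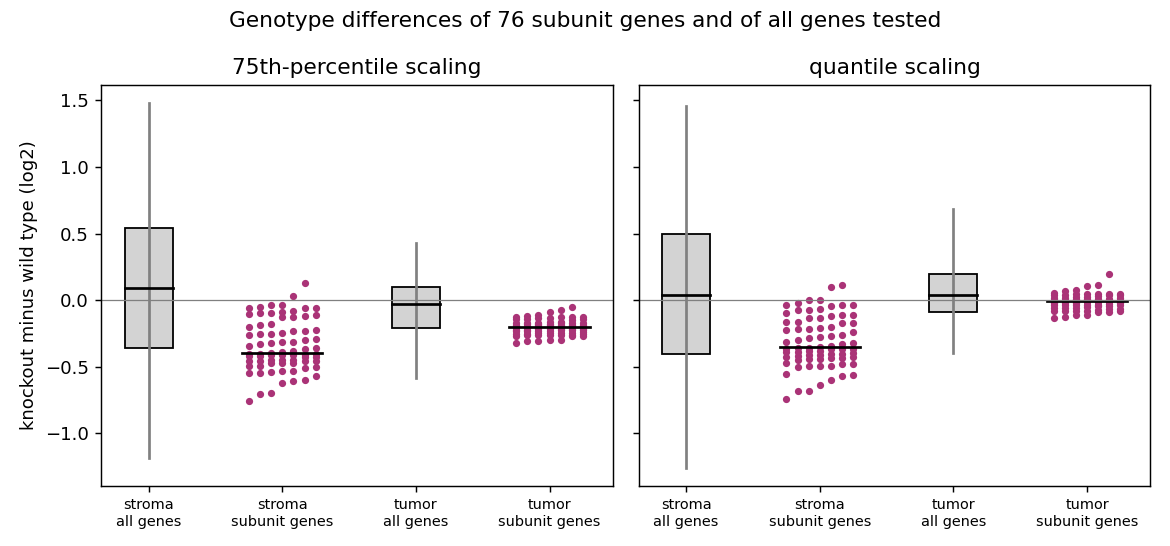
Knockout minus wild-type log2 difference of the 76 standard ribosomal protein genes (points, with a bar at the median) and of all genes tested (box from the 25th to the 75th percentile, line from the 5th to the 95th, bar at the median) in stroma and tumor, under both scalings. The subunit genes have medians of -0.39 and -0.35 in stroma and of -0.20 and -0.01 in tumor.

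The test of genotype by tissue asked whether the genotype difference was another in stroma than in tumor. By limma's test 0 members passed under either scaling (0 of 27096 genes, 0%), and 31 passed with array weights (48.2% of all genes). The median over the 81 members was -0.17 with 57 below 0 (42.2% of all genes), and -0.34 with 73 below 0 (52.4% of all genes) with quantile scaling. At an unadjusted p under 0.05 stood 2 members (21.0% of all genes), and 23 with quantile scaling (19.9%). The lowest estimates were those of Rps2 (-0.70 ± 0.28, adjusted p = 0.167), Rpl8 (-0.57 ± 0.30) and Rps3 (-0.57 ± 0.35), and Rps20 was at 0.46 ± 0.21. Rpl3l, whose tumor values were in part at background, changed sign without wild-type stroma 65 and 82. Without these arrays the median over the members was -0.07, and -0.17 with quantile scaling.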

How the data were processed

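Expression in stroma and tumor was read on 32 Agilent arrays in the Cy3 channel, 8 arrays per group. Per the file headers and the submitters' processing notes, Agilent Feature Extraction 10.7.3.1 made the deposited intensity values, and its processed signal is background-subtracted. The authors also deposited a table of log2 values, whose processing is not stated. Its values were compared with 75th-percentile values minus each probe's median within a tissue. In stroma 99.8% and in tumor 99.7% of values lay within 0.01 of these. The table was otherwise used only for an alternative fit between genotypes. Each array's log2 processed signal was set relative to its 75th percentile over non-control spots (584 to 1727 in intensity), and 50.2% to 76.3% of spots in tumor and 49.99% to 64.1% in stroma were well above background. Outlier spots were left out. Probes were named through RefSeq accessions, and the brightest probe stood for a gene. Genes well above background on at least 8 arrays, with at most 2 missing values, were tested with limma 3.58.1 in R 4.3.3, with 1 mean per genotype and sex within a tissue (16 arrays) and all 32 arrays for tissue and genotype by tissue. P-values were adjusted over all genes by Benjamini-Hochberg. The number of arrays limits the precision. The script was tested on simulated data. Named members are the paralogs with their partners, the 8 members with the largest difference in each direction of a comparison, and members with a known role, with at most 4 genes of each other list with the smallest p. The members and lists were chosen with earlier results of these data known. Alternatives were quantile scaling, normexp, the authors' table between genotypes, array weights, slide and number blocks, and leaving out arrays. Some genes that the naming rule covers are not reported here.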

Additional observations from a re-analysis of the deposited data

Results flagged for a closer look

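In groups of 8 arrays, 12 of 152 sets of values had 1 array far from the others by Dixon's test, where chance gives about 1 in 20. Wild-type stroma 9 had a ribosomal protein level of -0.71 with quantile scaling (the others lay between -0.15 and 0.22), and its share of the summed signal was 4.14% (5.44% to 6.59%). On the same array Rpl3 was at 4.94 (6.45 to 6.98), the dim Rpl37 at -5.43 (-4.40 to -3.50) and Rpl4 at 7.60 (6.77 to 7.12). Rpl4 was thus high where Rpl3 was low.

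Knockout stroma 12 stood apart the other way. Its share of the summed signal was 6.36% (4.33% to 5.28%), and Rps3 was at 6.77 (5.47 to 5.86), Rps6 at 7.19 (6.42 to 6.69), Rpl8 at 7.28 (6.09 to 6.51) and Rpl21 at 6.05 (5.10 to 5.52). This array also had the highest cell cycle level of the knockout stroma arrays (2.53) and the lowest muscle level (5.35). Their part in these values was not tested. Rps27l was low on wild-type stroma 4, at 5.17 (5.96 to 6.58). The wild-type tumor 9 level was 0.0361 with quantile scaling (0.17 to 0.28).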

How the results depend on the processing

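In stroma, the count of members past the threshold between genotypes was 0 and became 59 with array weights, 18 with all arrays in 1 fit, 14 without arrays against their sex label, and 0 to 32 when 1 array was left out. In wild-type hosts the count between tissues was 7 with quantile scaling (median -0.21) and 13 with normexp and quantile scaling (median -0.21, 30.2% of all genes called). For genotype by tissue the count was 31 with array weights and 0 to 1 with 1 array left out. Whether equal numbers mark one animal is not given in the labels: stroma and tumor of a number correlated from -0.0439 to 0.343, above 0.1 for 9 of 15 numbers, and 5 correlated best with their own number. Number 9 was discordant. The female-expressed Xist exceeded the Y-linked Ddx3y in its stroma (-2.87 against -7.57) but not in its tumor (-6.51 against -4.52). One correctly labelled animal would not give both. The block fits include number 9 unless its removal is named. With the number as a random replicate block 75 members passed between tissues (64.6% of all genes), with a fixed block 70 (60.8%), and without number 9 the fixed replicate block gave 1 for genotype by tissue (12.3% of all genes). The cause of these shifts was not tested. Signs turned in stroma between genotypes for Rpl39l (-0.29 with array weights), Rps27l (0.036 without wild-type stroma 65 and 82, 0.13 with quantile scaling too, -0.22 to 0.039 with 1 array left out) and Rpl4 (-0.068 without both arrays, -0.026 to 0.13 with 1 left out). With normexp and quantile scaling together, Rps18 turned to 0.019 between genotypes in tumor and Rps27l to 0.025 between tissues. In knockout hosts Rps12 turned to -0.051 with array weights (-0.039 to 0.079 with 1 array left out) and Rpl4 to -0.062 and -0.000165 with slide as a fixed and a random block (-0.058 to 0.061 with 1 array left out). For genotype by tissue Rpl3l turned to -0.80 with slide as a fixed block, -1.17 without wild-type stroma 65 and 82, -1.30 with quantile scaling too, and -0.095 to 1.71 with 1 array left out. Of the other values of single genes under an alternative 4085 kept direction and call, 96 gained and 69 lost the call. The settings with normexp, without wild-type stroma 65 and 82, without arrays against their sex label and without number 9 were chosen after seeing the data.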

Other observations

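Markers of further cell types were compared between stroma and tumor, where 26% of all genes rose and 36.8% fell. Among Schwann cell and nerve genes 8 of 10 rose (median 2.58), among B cell genes 5 of 7 (2.15), and among fibroblast genes 6 of 10 rose and 1 fell (0.91). The mean level of all listed B cell genes in tumor was -5.10 in wild-type and -4.84 in knockout hosts. The detection floors of the tumor arrays ran from -5.85 to -4.31, so the size for B cells rests in part on tumor signals near background. T cell genes had 1 of 9 higher and 1 lower past the threshold and neutrophil genes 2 of 9 higher. Of 10 keratinocyte genes only 3 could be tested, and 1 was higher. Between genotypes in tumor, mitochondrial ribosomal proteins were above 0 in 66 of 78 genes, with 0 past limma's threshold. Below 0 were 12 (15.4%), where 56.0% of all genes were, and the median was 0.09 against -0.03 for all genes. With quantile scaling 18 of the 78 were below 0, where 41.8% of all genes were, and the medians were 0.06 and 0.04.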
